A study of Mus musculus with 15 samples.

Results

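The genes described here encode secreted and surface proteins known from mesothelium, the cell sheet that covers the heart and lines the body cavities. They were chosen by name, as genes reported high in the heart surface cells of these arrays, so their difference between heart surface cells and fibroblasts chose them and is given as a description, without a test. Of 8 genes named, 7 had a value (Dmkn, Nkain4, Upk3b, Lrrn4, Slc9a3r1, Aqp1 and Podxl), out of 13513 genes with a value in all. Muc16, a large surface mucin, was not analysed here, because no probe set carried its symbol in the platform annotation used.

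Affymetrix arrays measured RNA of cells from hearts of wild-type C57BL/6 mice aged 8 to 12 weeks, with 5 arrays in each of 3 groups. EpiSC were epicardial stromal cells taken 5 days after myocardial infarction, released from the heart surface by shear in collagenase. The activated cardiac fibroblasts, aCF, came from the digested ventricles of hearts 5 days after infarction. CF were fibroblasts of unstressed control hearts, prepared like aCF with the atria removed, strainers and a slow spin that separated heart muscle cells. A sham-operated group was not analysed here. The sources used here name no sort or gate of the cells. Cell type and isolation differ together between EpiSC and the fibroblast groups, and their effects cannot be told apart. Each array held amplified RNA of 1 sample, and the 5 samples of a group are described as biological replicates.

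Values are log2 expression centred on the median of the 15 arrays for each probe set. They compare arrays for 1 gene, but give no level of one gene against another and no signal over background. Every gene name depends on reading the value of an identifier 6900 rows further down the deposited table (6903 on chromosomes 10 and 11). This shift was inferred from the values, and no header or label mentions it. For 29 cell cycle genes, the deviations of arrays from their group means had a mean pairwise correlation of 0.258 at that displacement, 0.00964 as deposited, and at most 0.121 at any other of 10353 displacements. For 15 of 15 arrays the most correlated array belonged to the same group. Within aCF, arrays 4 and 5 correlated best with each other (0.540), and the members' differences that involve aCF are therefore also given without them.

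Mesothelial cells carry microvilli and a coat of charged glycoproteins that keeps facing tissue layers from sticking, and they move water and ions into the cavity fluid. The epicardium is the mesothelium of the heart, and after infarction it becomes active again and forms a thickened layer of stromal cells. Several of these proteins also occur elsewhere: aquaporin 1 and podocalyxin are abundant in endothelium, and dermokine in epidermis. In bulk samples, fewer cells of a type and less RNA per cell cannot be told apart.

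EpiSC held more RNA than both fibroblast groups for Dmkn, Nkain4, Lrrn4, Upk3b, Aqp1 and Slc9a3r1, with all 5 EpiSC arrays above all 5 arrays of either group. Podxl was higher in mean in EpiSC but its arrays overlapped with both. These are 6 of 7 genes in each comparison. Of all probe sets with an identifier, EpiSC arrays lay wholly above aCF arrays for 6.48% and wholly above CF arrays for 14.0%. The choice of the genes used these contrasts, so nothing is read from the count. The median EpiSC minus aCF difference of the 7 genes was 2.82, against 0.01 over all rows, and the median EpiSC minus CF difference was 2.84, against -0.008. Among 13513 genes ordered by the difference from aCF, Dmkn was number 4, Nkain4 5, Lrrn4 8, Upk3b 9, Aqp1 19, Slc9a3r1 27 and Podxl 279.

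**Figure D1:**
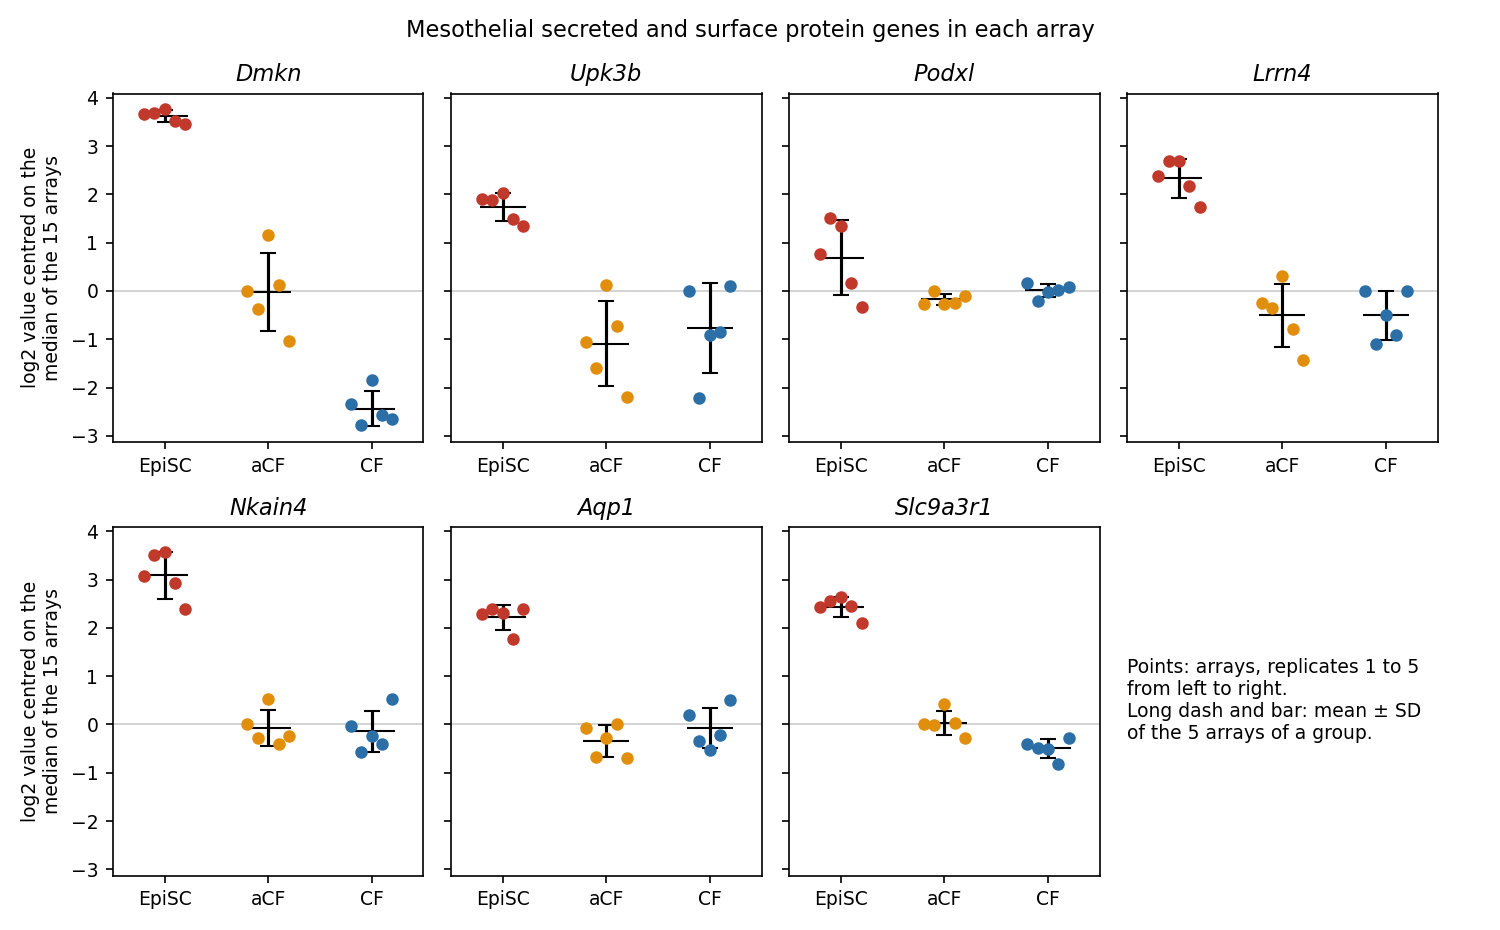
Centred log2 expression of the 7 genes by array (points) in EpiSC, aCF and CF, with the group mean as a bar and the SD as a whisker (n = 5 arrays per group). EpiSC arrays stand above all fibroblast arrays for 6 genes, Podxl overlaps, and Dmkn is the gene whose aCF arrays also lie wholly above the CF arrays.

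The secreted member is Dmkn (dermokine), a protein released by stratified epithelia. Dmkn stood at 3.66, 3.69, 3.76, 3.52 and 3.45 in EpiSC, at 0.00, -0.37, 1.16, 0.13 and -1.04 in aCF, and at -2.35, -2.77, -1.84, -2.56 and -2.66 in CF. The 3 groups did not overlap, EpiSC being high, CF low and aCF between them with the widest scatter (SD 0.80, against 0.13 in EpiSC). EpiSC exceeded CF by 6.05 ± 0.16 (SE, n = 5 per group), a 66.4-fold difference and the highest of the 13513 genes, and exceeded aCF by 3.64 ± 0.32 (12.5-fold). Set on a scale with the CF mean at 0% and the EpiSC mean at 100%, the aCF mean of Dmkn lay at 39.9%.

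The contrast of aCF with CF, which asks how infarction changes the fibroblast fraction, was the one on which the genes were not selected, although results for it were known. It uses the same fibroblast arrays as the contrasts with EpiSC, so it is not independent of the choice of the genes. Dmkn was 2.41 ± 0.35 higher in aCF than in CF (SE, n = 5 per group, 95% interval 1.64 to 3.18). This difference missed the threshold of 0.05 after Bonferroni adjustment over 22206 rows in limma (adjusted p = 0.695, range over the alternatives 0.000933 to 1). The adjusted p was 0.0242 when all 3 groups shared one fit and 0.000933 by Benjamini-Hochberg. An exact permutation test of the array values, 2-sided, gave p = 0.00794, the smallest that 5 arrays against 5 allow. Without aCF arrays 4 and 5 the difference was 2.70 (adjusted p = 0.73). Markers of other cells differed in this contrast too: 13 of 15 macrophage genes were higher in aCF (median difference 0.29, 0 past the threshold), 13 of 17 endothelial genes were lower (median -0.17, 0 past it), and the median of 10 mural genes was 1.00. Of the mural genes 2 rose (Tagln, and Cnn1, whose call was lost in 8 of 10 omissions of 1 array), and of 12 fibroblast genes 4 rose (Col1a1, Col1a2, Col3a1 and Postn) and 2 fell (Gsn and Ddr2). The calls of Col3a1, Gsn and Ddr2 were lost under other settings of limma with Bonferroni. A replicate block gave adjusted p = 0.344 for Col3a1 and 0.547 for Ddr2. Trend and robust estimation gave 0.197 for Gsn, whose call was also lost in the fit of all 3 groups. Without aCF arrays 4 and 5 the values were 0.304 for Col3a1 and 0.0905 for Ddr2. Of 14 cardiomyocyte genes 11 were lower in aCF (median -0.30, 0 past the threshold). The mean of that list was 0.06 to 0.27 in aCF arrays 1 to 3, and -0.54 and -0.51 in aCF arrays 4 and 5. The part of these marker shifts in the Dmkn difference was not tested.

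The genes on either side of Dmkn also encode secreted epidermal proteins in the RefSeq gene order on chromosome 7, Sbsn (suprabasin) before it and Krtdap (keratinocyte differentiation-associated protein) after it. Sbsn stood at 1.98 to 2.33 in EpiSC (median 2.16), at -0.38 to 0.23 in aCF (median 0.00) and at -0.39 to -0.16 in CF (median -0.28). EpiSC lay wholly above both fibroblast groups, which overlapped each other. Sbsn rose in EpiSC against aCF by 2.18 ± 0.11 (SE, limma with Bonferroni, adjusted p = 4.82e-05) and against CF by 2.42 ± 0.08 (adjusted p = 3.6e-07), and both calls held when any array was left out. Its aCF minus CF difference was 0.24 ± 0.10 (adjusted p = 1), where that of Dmkn was 2.41; the difference between these 2 genes was not tested. Krtdap differed by 0.17 ± 0.10 between EpiSC and aCF and its arrays overlapped. Of 10 genes listed for the neighbours of Dmkn and other secreted or structural products of stratified epithelium, 5 had a value, and Sbsn alone passed in either comparison with EpiSC.

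Upk3b (uroplakin 3b) belongs to a family of membrane proteins first known from bladder epithelium, and in mouse it marks mesothelium. It stood at 1.91, 1.88, 2.02, 1.49 and 1.35 in EpiSC, at -1.05, -1.59, 0.12, -0.73 and -2.20 in aCF, and at 0.00, -2.21, -0.92, -0.85 and 0.11 in CF. EpiSC lay wholly above the fibroblasts, and aCF and CF spanned the same range of more than 2 log2 units. EpiSC exceeded aCF by 2.82 ± 0.37 and CF by 2.50 ± 0.39, while aCF minus CF was -0.32 ± 0.50 (95% interval -1.43 to 0.79). The interval leaves room for a difference of more than 1 log2 unit in the fibroblasts.

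Lrrn4, a membrane protein with leucine-rich repeats on its outer side, is another mesothelial marker in mouse. It stood at 2.38, 2.69, 2.70, 2.18 and 1.73 in EpiSC, at -0.25, -0.35, 0.30, -0.78 and -1.44 in aCF, and at 0.00, -1.10, -0.49, -0.91 and 0.00 in CF. EpiSC exceeded aCF by 2.84 ± 0.31 and CF by 2.84 ± 0.26, and aCF and CF overlapped widely. The aCF and CF means were -0.50 each, with a difference of -0.004 ± 0.32 (95% interval -0.72 to 0.71). It was 0.40 without aCF arrays 4 and 5.

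Nkain4 encodes a membrane protein of a family that interacts with the sodium pump, the Na,K-ATPase. It stood at 3.08, 3.50, 3.57, 2.92 and 2.38 in EpiSC, at 0.00, -0.29, 0.53, -0.40 and -0.24 in aCF, and at -0.04, -0.57, -0.24, -0.41 and 0.53 in CF. All EpiSC arrays lay more than 1 log2 unit above the highest fibroblast array, and aCF and CF overlapped almost fully. The difference was 3.17 ± 0.24 from aCF and 3.24 ± 0.26 from CF, and 0.07 ± 0.22 between aCF and CF (95% interval -0.43 to 0.56).

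Aqp1 (aquaporin 1) is a water channel of mesothelium, endothelium and red blood cells. It stood at 2.28, 2.38, 2.30, 1.77 and 2.39 in EpiSC, at -0.07, -0.67, -0.28, 0.00 and -0.69 in aCF, and at 0.20, -0.35, -0.52, -0.22 and 0.51 in CF. EpiSC were high in every array, with EpiSC array 4 the lowest, and the fibroblast groups overlapped. EpiSC exceeded aCF by 2.57 ± 0.17 (5.92-fold) and CF by 2.30 ± 0.20, and aCF minus CF was -0.27 ± 0.21 (95% interval -0.74 to 0.20).

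Podxl (podocalyxin) is a charged sialomucin of podocytes, endothelium and mesothelium, and the scaffold protein Slc9a3r1 binds its inner end. Podxl stood at 0.76, 1.52, 1.34, 0.16 and -0.33 in EpiSC, at -0.27, 0.00, -0.27, -0.24 and -0.10 in aCF, and at 0.17, -0.20, -0.02, 0.02 and 0.08 in CF. EpiSC arrays 1, 2 and 3 stood above all fibroblast arrays, EpiSC array 4 stood among the CF arrays, and EpiSC array 5 was the lowest of the 15. The means differed by 0.87 ± 0.32 from aCF (1.82-fold) and by 0.68 ± 0.32 from CF (1.60-fold). The aCF minus CF difference was -0.19 ± 0.08 (limma with Bonferroni, adjusted p = 1, unadjusted p = 0.0477; exact permutation p = 0.0556).

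Slc9a3r1, also called NHERF1 or EBP50, is neither secreted nor exposed: it sits below the membrane and ties channels, transporters and podocalyxin to the actin cortex through the protein ezrin. It stood at 2.43, 2.56, 2.64, 2.46 and 2.10 in EpiSC, at 0.00, -0.02, 0.42, 0.04 and -0.28 in aCF, and at -0.40, -0.48, -0.51, -0.81 and -0.28 in CF. EpiSC were high with little scatter, and aCF lay above CF except that the lowest aCF array and the highest CF array tied at -0.28. EpiSC exceeded aCF by 2.41 ± 0.14 (5.30-fold) and CF by 2.93 ± 0.12 (7.64-fold). Between the fibroblast groups the difference was 0.53 ± 0.13 (95% interval 0.24 to 0.82), which missed the threshold (limma with Bonferroni, adjusted p = 1, unadjusted p = 0.00223; Benjamini-Hochberg 0.0186; exact permutation p = 0.0159). The aCF mean of Slc9a3r1 lay at 18.0% of the way between CF and EpiSC.

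**Figure D2:**
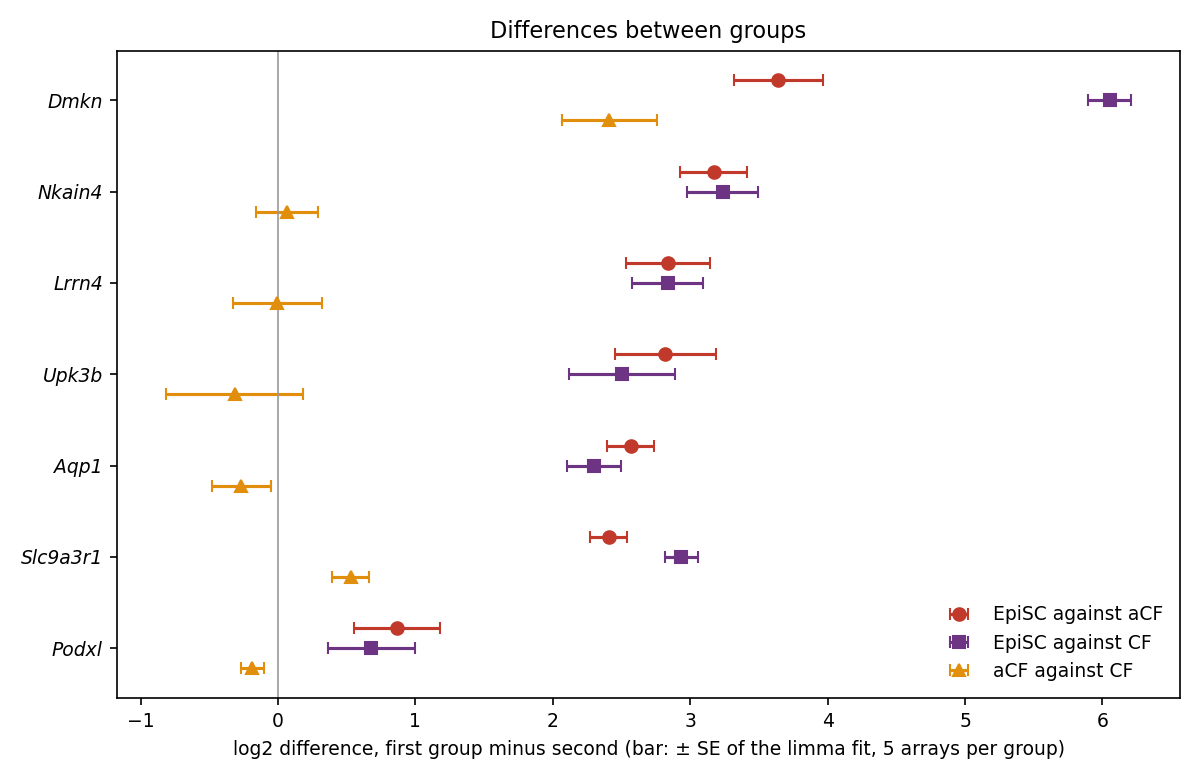
Log2 differences of the 7 genes for EpiSC minus aCF, EpiSC minus CF and aCF minus CF, with SE from limma as whiskers (n = 5 arrays per group). In aCF minus CF Dmkn stands at 2.41 and Slc9a3r1 at 0.53, the other 5 genes lie between -0.32 and 0.07, and 0 of 7 passed the Bonferroni threshold.

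In aCF against CF, 0 of 7 genes passed the threshold in limma with Bonferroni adjustment, and 3 (Dmkn and Slc9a3r1 higher, Podxl lower) had an unadjusted p under 0.05, as did 31.1% of all rows in either direction. By Benjamini-Hochberg, 2 passed as higher (Dmkn and Slc9a3r1), where 8.74% of all rows did. With all 3 groups in one fit 1 passed as higher (Dmkn), where 1.48% of rows did. By the Bonferroni threshold in the fit of aCF and CF alone, 1.21% of all rows were higher in aCF and 0.320% lower. For 1 of the 7 genes, Dmkn, all aCF arrays lay above all CF arrays, and this held for 9.92% of probe sets with an identifier, so the count of 1 is no result about the genes as a group. The median difference of the 7 genes was -0.004, against -0.022 over all rows.

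Leaving out aCF arrays 4 and 5 gave EpiSC minus aCF differences of 3.35 for Dmkn, 3.01 for Nkain4, 2.57 for Upk3b, 2.56 for Aqp1, 2.44 for Lrrn4, 2.30 for Slc9a3r1 and 0.87 for Podxl. All 7 kept their direction. The aCF minus CF differences without these arrays were 0.63 for Slc9a3r1, 0.40 for Lrrn4, 0.23 for Nkain4, -0.07 for Upk3b, -0.19 for Podxl and -0.26 for Aqp1, beside 2.70 for Dmkn. Of these, 0 passed the threshold, and Lrrn4 changed sign.

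Within EpiSC the members tended to be low in the same arrays: array 5 was the lowest for 6 of 7 genes and array 3 the highest for 5 of 7. Among the aCF arrays, number 3 was the highest and number 5 the lowest for 5 genes each, and among the CF arrays, number 5 was the highest (ties counted) and number 2 the lowest for 5 genes each. Averaged over the 7 genes, the arrays stood at 2.36, 2.60, 2.62, 2.07 and 1.87 in EpiSC, at -0.23, -0.47, 0.28, -0.28 and -0.86 in aCF, and at -0.35, -1.10, -0.65, -0.82 and -0.24 in CF. Members of one array share its RNA and its amplification, so this common order is a description of the arrays.

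Other genes of mesothelium and epicardium were listed without the members. Several of them had been reported for these arrays, so the list is no independent evidence of its direction. Of 33 genes, 14 had a value, and 6 rose and 0 fell in EpiSC against aCF, against a background of 0.401% of rows higher and 0.266% lower. The 6 were the epicardial transcription factor Wt1, the transcription factors Gata5 and Bnc1, the tight-junction membrane protein F11r, the secreted Wnt enhancer Rspo1, and Prr15. Against CF the same 6 rose and 0 fell, where 1.97% of all rows were higher and 0.941% lower. The median difference over the 14 genes was 1.69 from aCF and 1.55 from CF.

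Prr15, a small proline-rich protein, stood at 1.91 to 2.61 in EpiSC (median 2.28), at -0.23 to 0.63 in aCF (median 0.00) and at -1.97 to -1.53 in CF (median -1.77), with no overlap between the 3 groups. This is the order EpiSC, aCF, CF that Dmkn also had. Prr15 rose by 2.17 ± 0.18 against aCF (SE, limma with Bonferroni, adjusted p = 0.00394, 0.201 without aCF arrays 4 and 5 and 0.0745 after quantile normalization) and by 3.99 ± 0.13 against CF (adjusted p = 5.86e-07). It was the one listed gene that rose in aCF against CF, by 1.82 ± 0.16 (adjusted p = 0.00583, and 0.228 without aCF arrays 4 and 5). All 3 calls held when any 1 array was left out.

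Wt1 stood at 1.59 to 2.45 in EpiSC (median 1.99), at -0.23 to 0.31 in aCF (median -0.06) and at -0.47 to 0.00 in CF (median -0.21). The EpiSC values were apart from both fibroblast groups, which overlapped. Its difference was 2.01 ± 0.18 from aCF (limma with Bonferroni, adjusted p = 0.00884) and 2.18 from CF (adjusted p = 0.0027). Gata5 differed by 2.70 ± 0.26 from aCF (adjusted p = 0.024), F11r by 2.81 ± 0.27 (0.0226), Bnc1 by 2.36 ± 0.22 (0.017) and Rspo1 by 1.48 ± 0.15 (0.0321). These calls sit close to the threshold. Leaving out 1 array left 1 to 5 of the 6 calls against aCF: 1 without EpiSC array 1 or without aCF array 1, 2, 4 or 5, 2 without EpiSC array 2 or 3, 3 without EpiSC array 5, 4 without aCF array 3 and 5 without EpiSC array 4. Without both aCF arrays 4 and 5, 0 remained. Against CF, 3 to 5 remained, with 3 only without CF array 3.

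The other 8 listed genes with a value did not pass in either comparison. Gpm6a, a membrane glycoprotein, differed by 2.72 ± 0.39 from aCF (limma with Bonferroni, adjusted p = 0.702) and the junction protein Cldn15 by 1.90 ± 0.26 (adjusted p = 0.427), both with EpiSC arrays wholly above. Aldh1a2, which makes retinoic acid, differed by -0.02, the epicardial transcription factor Tbx18 by 0.10 and the mesothelial calcium-binding protein Calb2 by 0.25. The mesothelial label therefore matches some of the listed genes with a value and not others.

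**Figure D3:**
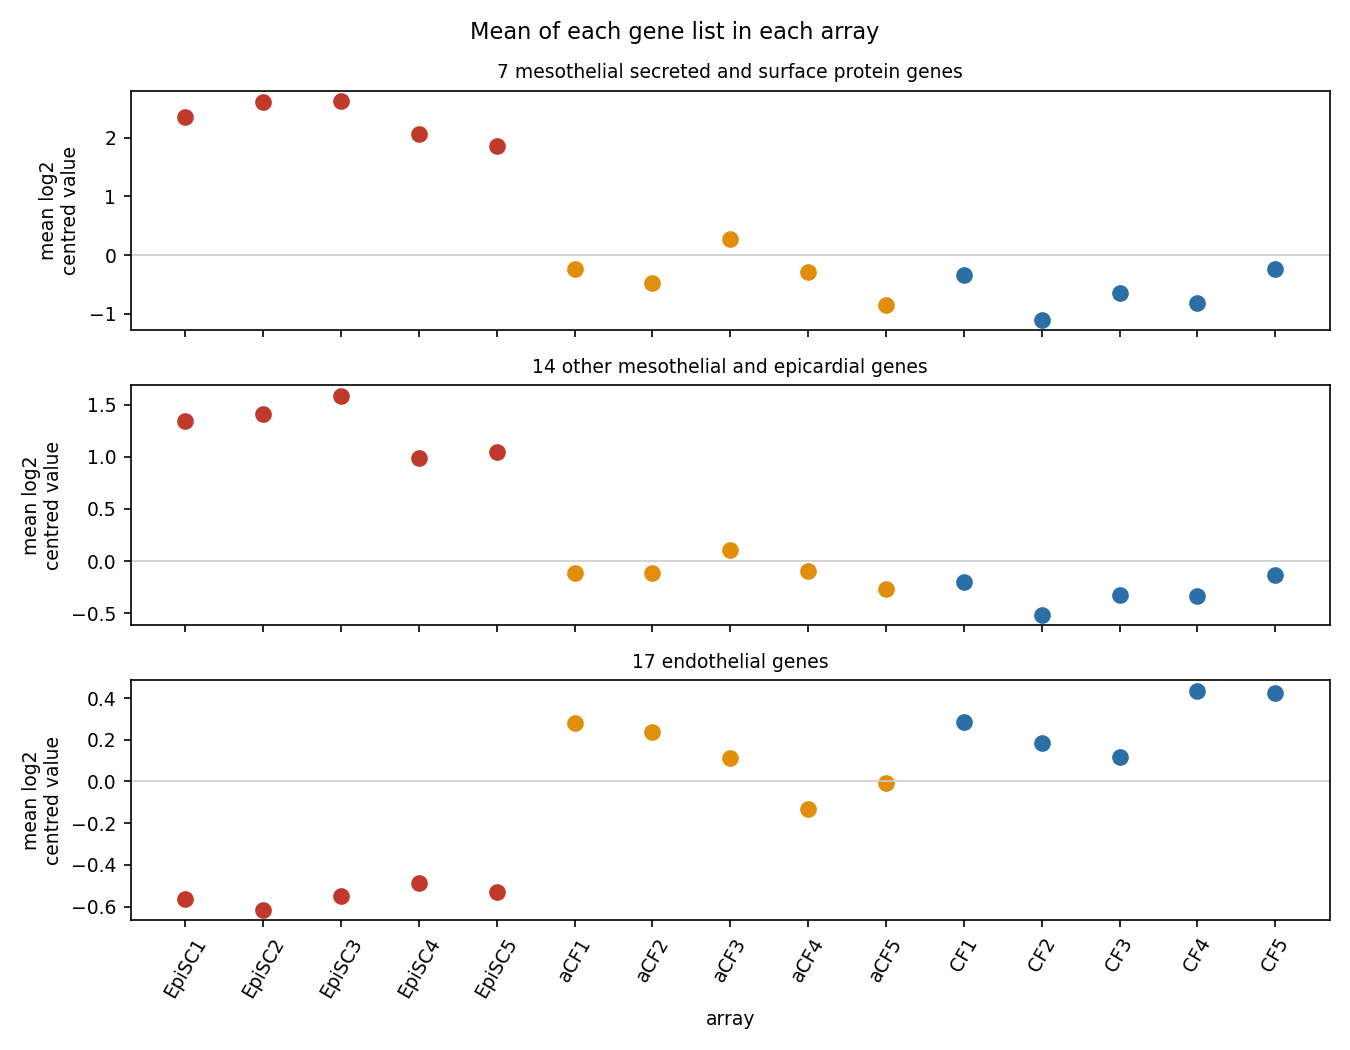
Mean centred log2 value per array (points) for the 7 members, the 14 other mesothelial and epicardial genes and the 17 endothelial markers, with the arrays of EpiSC, aCF and CF from left to right. The members and the other mesothelial genes are high in EpiSC, and the endothelial list is lower there than in either fibroblast group.

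Because Aqp1 and Podxl are also endothelial genes, endothelial markers were set beside them. Of 24 endothelial genes 17 had a value, and their mean per array lay at -0.61 to -0.49 in EpiSC, at -0.13 to 0.28 in aCF and at 0.12 to 0.43 in CF. For 16 of 17 the EpiSC minus aCF difference was below 0. In that comparison 0 rose and 1 fell, the receptor phosphatase Ptprb, by 3.09 ± 0.15 on the log2 scale (limma with Bonferroni, adjusted p = 1.92e-05). Against CF 0 rose and 1 fell, the junction cadherin Cdh5, by 2.88 ± 0.13 on the log2 scale (adjusted p = 9.54e-06). Esam, the 1 endothelial gene with differences above 0, was higher in EpiSC by 0.45 ± 0.13 from aCF and 0.75 ± 0.11 from CF, without overlap. The Aqp1 and Podxl means were also higher in EpiSC, where the Podxl arrays overlapped both fibroblast groups. Both genes were chosen as high in EpiSC, so that direction was set by the choice. The part of endothelial cells in their values was not tested.

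Markers of other cells also moved. Of 15 macrophage genes with a value the receptor kinase Mertk fell against aCF (limma with Bonferroni, adjusted p = 0.0206) and against CF (adjusted p = 0.0446). Differences below 0 numbered 13 of 15 from aCF (median -0.38) but 9 of 15 from CF (median -0.04). Of 10 mural genes 2 fell (Rgs5 and Higd1b) and 1 rose (Des) against aCF, while 3 rose (Cnn1, Tagln and Des) and 1 fell (Vtn) against CF. Most mural differences were below 0, 8 of 10 from aCF (median -0.935) and 7 of 10 from CF (median -1.01). For fibroblast genes, 12 of 12 differences from aCF were below 0 with 0 past the threshold. Against CF 3 rose (Col1a1, Col1a2 and Postn) and 0 fell, but 8 of 12 differences were below 0 (median -0.19). The widest of them was Gsn at -1.92, which missed the threshold. Of 14 cardiomyocyte genes 0 passed against aCF and 3 fell against CF (Myl2, Myl3 and Tnnt2). Differences below 0 numbered 11 of 14 from aCF and 10 of 14 from CF. Myl7 ran the other way, by 2.38 ± 0.28 from aCF and 1.85 ± 0.28 from CF. Its EpiSC arrays lay wholly above both groups, and both differences missed the threshold. With 1 array left out, the calls of Mertk in both comparisons, of Des against aCF and of Cnn1, Tagln, Vtn, Myl3 and Tnnt2 against CF were each lost in at least 4 of 10 omissions. Against CF, the calls of Col1a1, Col1a2 and Postn were lost with a replicate block and with trend and robust estimation. Under the latter, limma with Bonferroni gave adjusted p = 0.307 for Col1a1 and 0.456 for Col1a2. Trend and robust estimation also lost Higd1b against aCF (0.821), and the fit of all 3 groups lost Myl2 against CF (0.305). The part of these marker shifts in the members' differences was not tested.

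The members' relatives are described by family. The members were chosen as high in EpiSC and were not put to the threshold there, so a relative below its member is no test. Among 7 of 11 other aquaporins with a value, 0 passed in any of the 3 comparisons. Aqp8 differed by 1.07 ± 0.13 between EpiSC and aCF (limma with Bonferroni, adjusted p = 0.139), with EpiSC arrays wholly above, and Aqp11 by -0.68. From CF, EpiSC differed by -1.53 ± 0.17 for Aqp7 (adjusted p = 0.0843), -1.18 ± 0.23 for Aqp11 and 1.00 ± 0.11 for Aqp8, each without overlap. For Aqp7, aCF also lay wholly below CF, by -1.47 ± 0.22. Of 5 other uroplakins 3 had a value, Upk1a at -0.19 ± 0.14, Upk2 at -0.07 ± 0.11 and Upk3bl at 0.16 ± 0.13 for EpiSC minus aCF, with 0 past the threshold in any comparison. Of 16 mucins and other surface glycoproteins 9 had a value and 0 passed in any comparison. Muc1 differed by -0.27 ± 0.24 between EpiSC and aCF, and the other Muc genes with a value by 0.06 to 0.14. Mcam, an adhesion protein and mural marker but no mucin, had the widest difference in the list, -2.71 ± 0.31 (limma with Bonferroni, adjusted p = 0.0923).

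Of the 15 genes for other Nkain proteins and for sodium pump subunits, 10 had a value and 0 passed against aCF. Atp1b1, the beta 1 subunit of the pump, stood at 0.90 to 2.01 in EpiSC, at -0.13 to 0.06 in aCF and at -1.96 to -0.22 in CF. Its groups did not overlap, and its differences of 1.45 ± 0.20 from aCF (limma with Bonferroni, adjusted p = 0.618) and 2.59 ± 0.32 from CF (adjusted p = 0.198) missed the threshold. The pump regulator Fxyd1 fell in EpiSC against CF by 0.89 ± 0.07 on the log2 scale (adjusted p = 0.00421). Nkain1, Nkain2 and Nkain3 differed from aCF by 0.44, 0.45 and -0.02, with overlapping arrays.

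Among the leucine-rich repeat proteins related to Lrrn4, 6 of 11 had a value and 0 passed against aCF. Flrt3, an adhesion protein with such repeats, differed by 1.13 ± 0.20 from aCF (limma with Bonferroni, adjusted p = 1), with EpiSC arrays wholly above. It rose against CF by 1.31 ± 0.14 (adjusted p = 0.0459). That call was lost when any array but EpiSC array 1 was left out (adjusted p up to 0.272). Lrrn1 differed by 0.49 ± 0.26 and Lrrn2 by -0.03 from aCF. Of 22 partners of podocalyxin and of the Slc9a3r1 scaffold 15 had a value, and 0 passed in any of the 3 comparisons, with a median difference from aCF of 0.04. Radixin (Rdx), which links membrane proteins to actin, differed by -0.29 and moesin (Msn), its relative, by 0.01, while Slc9a3r1 differed by 2.41. From CF, Rdx differed by -0.62 ± 0.07 (limma with Bonferroni, adjusted p = 0.0806) and Msn by 0.37 ± 0.09. The EpiSC arrays lay wholly below both fibroblast groups for Rdx and wholly above CF for Msn.

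**Figure D4:**
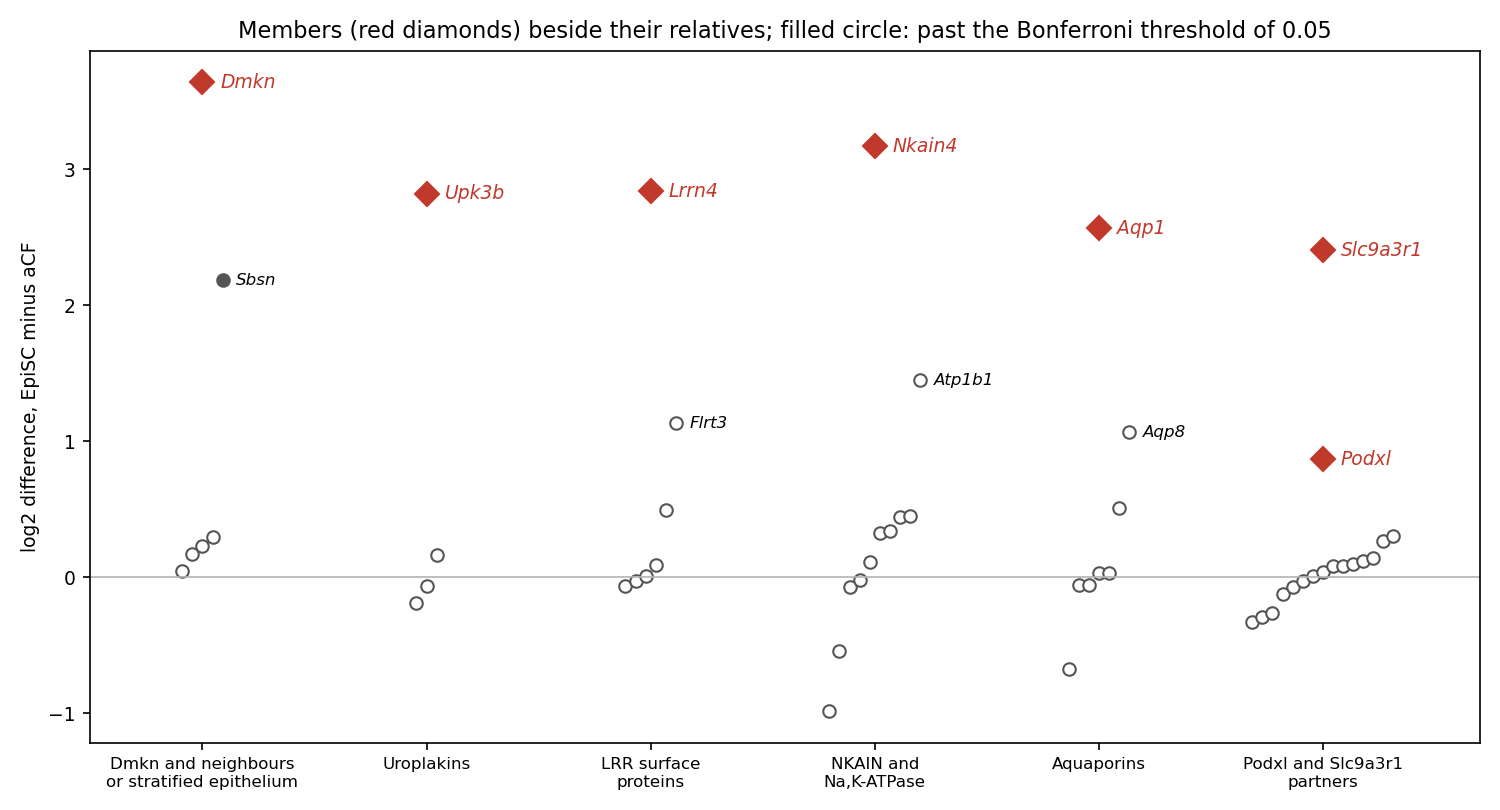
EpiSC minus aCF log2 difference of each member beside the genes of its family or complex that had a value (means of 5 arrays per group, members as diamonds, relatives as circles, filled where past the Bonferroni threshold). Each member lies above all relatives shown beside it, and Sbsn is the only relative past the threshold. The members were chosen as high in EpiSC, so their place above relatives is no test.

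The start sites of the members are shown because most of them were high in the same samples. RefSeq promoters (GRCm38.p6) were at hand for 5 of the 7 genes. The 250 bases before the start were searched on both strands for GGAATG (TEAD factors), AGATAA (sites of the GATA factors), TATAAA (the core promoter box of that name), GGGCGG (Sp factors) and CCAAT (factor NF-Y). Each is printed 5′ to 3′ on the strand of its gene, with capitals marking every match, read on either strand.
Lrrn4, chr2:132880863-132881112, minus strand: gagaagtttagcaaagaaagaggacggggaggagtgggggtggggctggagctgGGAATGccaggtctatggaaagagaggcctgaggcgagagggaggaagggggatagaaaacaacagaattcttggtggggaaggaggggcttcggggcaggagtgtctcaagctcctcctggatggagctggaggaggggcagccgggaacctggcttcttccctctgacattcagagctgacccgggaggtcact
Upk3b, chr5:136038246-136038495, plus strand: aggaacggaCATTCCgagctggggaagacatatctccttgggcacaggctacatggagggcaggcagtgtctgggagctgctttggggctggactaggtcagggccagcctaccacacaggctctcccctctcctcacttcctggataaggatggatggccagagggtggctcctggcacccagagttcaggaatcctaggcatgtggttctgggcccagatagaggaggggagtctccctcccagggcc
Aqp1, chr6:55336049-55336298, plus strand: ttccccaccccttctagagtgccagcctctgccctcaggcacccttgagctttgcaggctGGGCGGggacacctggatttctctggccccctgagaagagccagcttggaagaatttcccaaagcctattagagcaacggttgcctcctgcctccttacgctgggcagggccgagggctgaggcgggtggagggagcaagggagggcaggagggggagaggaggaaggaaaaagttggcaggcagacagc
Dmkn, chr7:30763506-30763755, plus strand: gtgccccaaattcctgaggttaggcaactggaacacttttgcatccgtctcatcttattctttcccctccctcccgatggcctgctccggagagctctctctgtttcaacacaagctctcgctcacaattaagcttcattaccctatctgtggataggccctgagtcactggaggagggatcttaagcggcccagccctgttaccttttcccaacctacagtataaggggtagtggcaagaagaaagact
Slc9a3r1, chr11:115163091-115163340, plus strand: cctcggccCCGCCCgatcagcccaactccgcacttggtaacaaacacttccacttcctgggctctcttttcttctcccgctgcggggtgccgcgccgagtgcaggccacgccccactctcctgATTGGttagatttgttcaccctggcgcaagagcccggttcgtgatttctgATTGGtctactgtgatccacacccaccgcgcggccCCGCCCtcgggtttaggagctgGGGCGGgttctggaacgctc
The letters GGAATG stood in Lrrn4, 196 bases before the start, and, on the other strand, in Upk3b, 241 bases before it. They occur in 12.6% of 32851 promoters of this length. GGGCGG (32.7% of promoters) stood once in Aqp1, 190 bases before the start, and in Slc9a3r1 at 242, 42 and 20 bases, and CCAAT (33.8%) in Slc9a3r1 at 127 and 77 bases. The windows of Dmkn, 3 in the table, held none of the 5 motifs, and no window held AGATAA (9.99%) or TATAAA (12.4%). A match is a string of letters in a window and no measured binding.

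The genes whose values lay closest to the members over the 15 arrays were found by the root mean square difference, in log2 units. Nearest to the mean of the 7 members were Cyp2s1 (0.357), F11r (0.379), Stk26 (0.380), Aplp1 (0.389), Rab11fip1 (0.397), Smpd3 (0.400), Ptger3 (0.401) and Cth (0.405). For Dmkn the closest were Lcn2 (0.609), a secreted iron-siderophore-binding protein, and Saa3 (0.929), an acute-phase serum amyloid. Gpm6a was the closest gene to both Lrrn4 (0.282) and Upk3b (0.487). Nkain4 had Gata5 (0.373), Aqp1 had the receptor kinase gene Met (0.337), Slc9a3r1 had Cth (0.242) and Podxl had Slitrk4 (0.192). Among the members themselves Lrrn4 and Slc9a3r1 were closest (0.453) and Dmkn and Podxl farthest apart (2.28).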

How the data were processed

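The members and gene lists were chosen with earlier results of these data known. The deposited values are log2 expression values: the authors ran GeneSpring GX 12.5 with quantile normalization, an exon-level RMA summary and a baseline at the median of all samples, per the design text. Base 2 is inferred from that method and the range, -4.77 to 5.52. Biotin-labelled material came from 1 ng of amplified RNA, per the labels' protocols. The authors' detection rule (raw signal above the 20th percentile) could not be applied to centred values, so no filter on low values was used and depth is unknown; the number of arrays limits precision.

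Values of 15303 of 22206 rows were paired with an identifier by the displacement described above, and the other 6903 stayed unnamed. The 3 additional rows for identifiers of chromosomes 10 and 11 rest on 3 cell cycle genes, whose correlation with the list profile was 0.733 with them and -0.0844 without. Over 25 genes with 2 probe sets, the median correlation between them was 0.586 after pairing and -0.0679 as deposited. Of 22206 probe sets the platform annotation gives 1 symbol to 19572, several to 0 and none to 2634, and the RefSeq gene table held all 19572. For a gene with several probe sets the first by identifier was used.

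Each pair of groups had its own limma fit (version 3.58.1 under R 4.3.3, functions lmFit and eBayes, 2-sided, Bonferroni over 22206 rows, threshold 0.05). The fits were tested on simulated normal values with each row's own spread between arrays. They recovered 78% to 79% of planted differences of 1.5 log2 units and 93% to 97% of those of 3. A gene that missed the threshold is therefore not shown to be unchanged. Permutation tests used SciPy 1.17.1. The design text names the comparisons of EpiSC with aCF and of aCF with CF; that of EpiSC with CF was added, and each pair of comparisons shares a group. Named are all members with a value, listed genes past the threshold and the nearest genes by root mean square difference. For a list with none past the threshold, the genes with the widest EpiSC minus aCF differences are named. Aldh1a2, Tbx18, Calb2, Krtdap, Muc1, Atp1b1, Aqp7, the Nkain and Lrrn genes, Msn, Upk2, and a few values beside them, were named after their values were seen. Alternatives were Benjamini-Hochberg adjustment, a fit of all 3 groups, a replicate block, trend and robust estimation, array weights, quantile normalization, paired rows only, other row pairings and arrays left out. At most 2.45% of values were identical between any pair of arrays.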

Additional observations from a re-analysis of the deposited data

Results flagged for a closer look

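Aqp1 in EpiSC array 4 was 1.77, against 2.28 to 2.39 in the other EpiSC arrays. The gap to the nearest array was 0.823 of the group's range, above the critical value of 0.71 for 5 values. Of 21 groups of values checked (7 genes in 3 groups) this was the only one, and chance picks out about 5% of groups. The array remained above all 10 fibroblast arrays for Aqp1.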

How the results depend on the processing

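With the row pairing kept, the members' differences from EpiSC kept their direction under every alternative run; quantile normalization moved 4 of them by more than the SD between arrays (EpiSC minus aCF: Dmkn 2.74, Nkain4 2.44, Aqp1 2.18, Slc9a3r1 1.86; EpiSC minus CF: Dmkn 4.84, Nkain4 2.59, Aqp1 1.93, Slc9a3r1 2.51). With 1 array left out, the members' median ranged from 2.54 to 3.04 for EpiSC minus aCF, 2.69 to 2.99 for EpiSC minus CF, and -0.163 to 0.121 for aCF minus CF. Near-zero aCF minus CF differences turned sign: Lrrn4 was 0.0699 with array weights, 0.000133 after quantile normalization, 0.40 without aCF arrays 4 and 5 (chosen after seeing the data) and -0.205 to 0.23 with 1 array left out, and Nkain4 -0.0865 to 0.235. Members past the threshold in aCF against CF numbered 2 by Benjamini-Hochberg, 1 in the fit of all 3 groups and 0 to 0 with 1 array left out.

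With values as deposited, which changes the row each gene takes, the members' median was -0.046 for EpiSC minus aCF (Dmkn -0.046, Podxl -0.05, Lrrn4 -0.228, Aqp1 -0.004, Slc9a3r1 -0.196) and 0.002 for EpiSC minus CF (Lrrn4 -0.28, Nkain4 -0.01, Slc9a3r1 -0.062), and in aCF minus CF Podxl was 0.206, Nkain4 -0.076 and Aqp1 0.006. Without the 3 extra rows Slc9a3r1 was -0.078, -0.298 and -0.22 in EpiSC minus aCF, EpiSC minus CF and aCF minus CF. As deposited, 0 other mesothelial genes passed in each comparison.

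Of the other mesothelial genes, 6, 6 and 1 passed in EpiSC against aCF, EpiSC against CF and aCF against CF. For EpiSC against aCF the count was 3 after quantile normalization, 3 with the replicate block and 0 without aCF arrays 4 and 5. Prr15 was among the calls against aCF lost with quantile normalization (adjusted p = 0.0745) and the replicate block (0.0688). For EpiSC against CF the count was 2 with the block, and for aCF against CF 0 without aCF arrays 4 and 5. With 1 array left out they were 1 to 5, 3 to 5 and 1 to 1. Probe sets past the threshold numbered 148, 647 and 340 in the same order. Benjamini-Hochberg gave 2135, 7157 and 4023, and the replicate block 41, 166 and 94. The fit of all 3 groups gave 369 for EpiSC against aCF and 1060 for EpiSC against CF. For EpiSC against aCF and aCF against CF, trend and robust estimation gave 97 and 212, and leaving out aCF arrays 4 and 5 gave 50 and 144. With 1 array left out they were 73 to 143, 369 to 557 and 197 to 272. The cause of these shifts was not tested. Same-numbered arrays had correlations of deviations between -0.0504 and 0.172, and 1 of 5 pairs of EpiSC and aCF arrays, the pair numbered 4, was over 0.1. The pairing was therefore not taken from the data. The labels describe EpiSC and aCF as isolated at the same time without tying numbers to animals, so arrays of the same number may share a heart.

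The arrays give no absolute level and no detection call, and probe sets with no identifier stay unnamed. An unmeasured relative of a member is not shown to be absent.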
